A study of Mus musculus with 2 samples.

Results

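The 4 microRNAs miR-31-5p, miR-10a-5p, miR-10b-5p and miR-148a-3p, which have been linked to effector and regulatory T cells, were compared between CD4+ T cells of the spleen and of the gut lamina propria. They were chosen by their miRBase accessions, and 4 of the 739 rows of the array table carried them. MIMAT0000538 stands for miR-31-5p, MIMAT0000648 for miR-10a-5p, MIMAT0000208 for miR-10b-5p and MIMAT0000516 for miR-148a-3p. The choice was made with earlier results of these arrays known. The high lamina propria ratios of miR-31-5p and miR-148a-3p were among the reasons for it, so the values below are descriptions and carry no test.

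The arrays came from female C57BL/6 mice aged 10 weeks with the genotype IL-10 +/-, which leaves 1 working copy of the gene for the anti-inflammatory cytokine interleukin 10. Both tissues share this genotype. The lamina propria is the connective layer beneath the intestinal epithelium. Per the labels' protocols, its lymphocytes were released with collagenase, magnetic beads were used to isolate the CD4+ T cells from either organ, and Hy5 was the dye attached to their RNA. Collagenase is named for the lamina propria alone, so the effects of tissue and of dissociation cannot be told apart. Each tissue has 1 array (n = 1, no error), and how many mice an array stands for is not given here. Precision is limited by this number of arrays.

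MicroRNAs are short RNAs that guide the Argonaute silencing complex to messenger RNAs, mostly by pairing of the seed, bases 2 to 8 of the microRNA. In mouse T cells miR-10a has been described in regulatory T cells, where retinoic acid raises it and where it represses Bcl6, the master factor of follicular helper T cells. In mouse Th1 cells that have been stimulated repeatedly, miR-148a has been described as a repressor of Bim, a protein that promotes cell death. miR-31 has been reported to repress Foxp3, the lineage factor of regulatory T cells, in human cells, and Gprc5a, a receptor gene tied to peripherally induced regulatory T cells, in the mouse. These microRNAs are not particular to T cells: miR-31 is also made in the intestinal epithelium.

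The mature sequences are shown because they show which members share a seed and which are nearly identical. They are given 5′ to 3′ from RefSeq (GRCm38.p6), which held all 4 members, with the seed in capitals.
miR-31-5p: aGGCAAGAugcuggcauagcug
miR-10a-5p: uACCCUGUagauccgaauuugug
miR-10b-5p: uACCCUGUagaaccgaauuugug
miR-148a-3p: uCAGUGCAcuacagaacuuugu

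The 4 members fall into 3 seed groups. miR-10a-5p and miR-10b-5p share the seed ACCCUGU and are identical at 22 of 23 bases. Their single difference, counted from 1 at the 5′ end with the miR-10a-5p base first, is U12A, outside the seed. The seed GGCAAGA of miR-31-5p was found in 0 others of the 1679 mature mouse names in the RefSeq table. The seed CAGUGCA of miR-148a-3p was shared with miR-148b-3p and miR-152-3p, which differ from it at 2 and 3 of the bases compared. The differences from miR-148b-3p are C9U and U10C, and those from miR-152-3p are C9U, U10G and U20G, with the miR-148a-3p base first. These relatives are shown beside it with the same marking of the seed.
miR-148b-3p: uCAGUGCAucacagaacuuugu
miR-152-3p: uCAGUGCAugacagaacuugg

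The accessions of miR-148b-3p, miR-152-3p and the opposite arms of the 4 precursors are not paired with names in the tables used here, so no value is given for them.

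The genes lie on 4 chromosomes. In GRCm38.p6 mature miR-31-5p maps to chr4:88910614-88910635 on the minus strand, and its precursor overlaps the span of the long non-coding RNA gene Gm49890. The nearest protein-coding genes on either side are Ifne and Mtap. miR-148a-3p maps to chr6:51269829-51269850 on the minus strand, and its precursor overlaps the span of the predicted gene Gm38821 and lies between Npvf and Nfe2l3. miR-10a-5p maps to chr11:96317186-96317208 on the plus strand, and its precursor overlaps the span of Hoxb3. miR-10b-5p maps to chr2:74726074-74726096 on the plus strand, and its precursor overlaps the spans of Hoxd3 and Hoxd4. The miR-10 pair thus sits in the Hoxb and Hoxd clusters of developmental transcription factor genes. Whether exons or introns are overlapped was not examined.

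All 4 members had a value on both arrays, and all 4 were higher in lamina propria CD4+ T cells on the deposited scale. Among all 353 rows with a value on both arrays, 178 (50.4%) were higher in lamina propria. miR-31-5p differed most, at 11.1-fold, miR-148a-3p was 2.95-fold higher, miR-10b-5p 2.58-fold and miR-10a-5p 1.65-fold. At least 2-fold higher values were thus listed for 3 of 4 members and at least 2-fold lower values for 0 of 4. One of the 3, miR-10b-5p, counts through a spleen value of 1.82, and against the lowest value on the lamina propria array, 2.88, it was 1.63-fold higher, which is short of 2-fold. Of the 353 rows with a value on both arrays, lamina propria was at least 2-fold higher in 16.1% and at least 2-fold lower in 25.8%. Rows listed on 1 array alone are outside these shares, and more of them were spleen rows, as 516 rows were listed in spleen and 378 in lamina propria. The ratios helped to choose the members, so nothing is read from the difference between these shares. The median log2 ratio was 1.47 over the 4 members and 0.01 over the 353 rows, and for the same reason nothing is read from that difference. In RNA from many cells, a microRNA made by more of the cells and one made at a higher level per cell cannot be told apart.

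**Figure D1:**
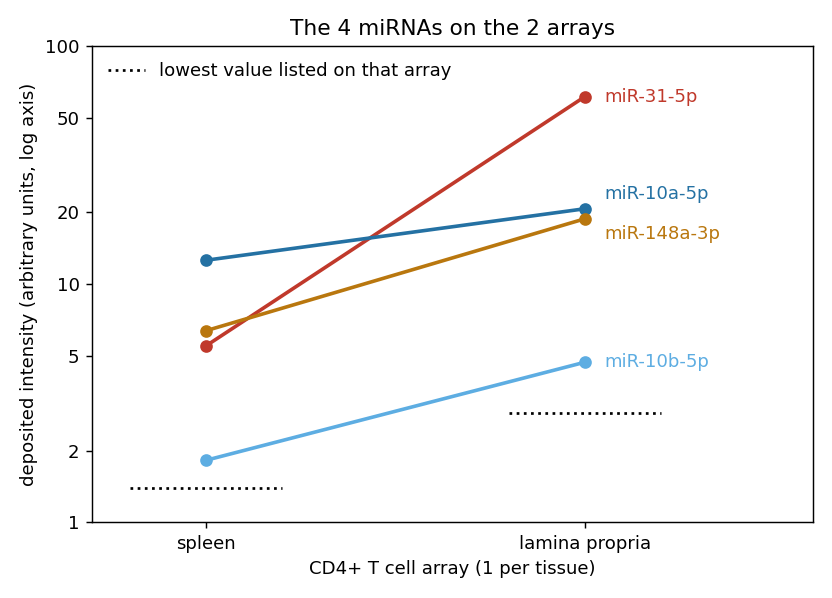
Deposited intensity (arbitrary units, log axis) of the 4 microRNAs on the spleen and the lamina propria array, 1 point per array joined by a line, with dotted marks at the lowest value listed on each array (1.39 and 2.88). Each line goes up towards the lamina propria, most steeply for miR-31-5p (5.50 to 61.32), and miR-10b-5p lies just above the dotted marks on both arrays.

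In spleen miR-31-5p had an intensity of 5.50, against 61.32 in lamina propria, which is a log2 ratio of 3.48. In spleen this was 3.96 times the lowest listed value of the array, and the lamina propria value was 21.3 times the lowest there. The microRNA was therefore dim in spleen and well clear of the lowest listed values in the gut. Its ratio ranked 2 of 353, and 99.4% of the shared rows had a lower one. The only row above it, at 2.10 in spleen and 984.31 in lamina propria, had a log2 ratio of 8.87. The row just below it had 4.97 and 43.64, a log2 ratio of 3.13, so miR-31-5p did not stand alone at this end of the distribution. At least 4-fold higher values were listed for 8 rows (2.27%), and miR-31-5p was the only member among them.

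The intensity of miR-148a-3p was 6.37 in spleen against 18.81 in lamina propria, and its log2 ratio was 1.56. The spleen value was 4.58 times and the lamina propria value 6.53 times the lowest listed on the respective array. Its ratio ranked 16 of 353. Rows on either side of it had log2 ratios of 1.57 and 1.53, so its rank rests on small steps between rows.

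miR-10a-5p, which has been described in regulatory T cells, was listed at 12.59 in spleen and at 20.72 in lamina propria, for a log2 ratio of 0.72. These values were 9.06 and 7.19 times the lowest listed on the respective array. It was the only member that stayed under 2-fold, and its ratio ranked 89 of 353, exactly at the upper quartile of all shared rows. With respect to rank alone, a ratio of this size was common on these arrays.

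miR-10b-5p, which carries the same seed, was listed at 1.82 in spleen and at 4.70 in lamina propria, for a log2 ratio of 1.37 that ranked 26 of 353. Both values lay near the lowest listed on their array, at 1.31 times in spleen and 1.63 times in lamina propria. The lowest listed value was itself 2.07 times higher on the lamina propria array. The spleen value of miR-10b-5p lies under the lowest lamina propria value, 2.88, and with the spleen set to that value the lamina propria intensity was 1.63-fold higher, below the 2-fold mark. It was the only member with a spleen value under that level.

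The ratio of a row depended on how bright the row was, so the members were also set beside rows of similar level. The 353 shared rows were divided into 5 groups by mean log2 intensity, from dim to bright. miR-10b-5p fell in the dimmest group, where the median log2 ratio was 0.71 with quartiles of 0.27 and 1.08, and 23 of 71 rows (32.4%) were at least 2-fold higher in lamina propria. Its log2 ratio exceeded that median by 0.66 and ranked 7 of 71. A high ratio was thus frequent among rows as dim as miR-10b-5p.

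For the other members the reference depended on how level was measured, because a high lamina propria value itself moves a row to a brighter group by mean level. By the mean of both arrays, miR-31-5p lay 4.21 above the median log2 ratio of its group and ranked 2 of 70. Grouped by spleen intensity alone, it lay 3.10 above the median and ranked 1 of 70, and by lamina propria intensity alone it lay 3.80 above and ranked 2 of 71. miR-148a-3p lay 2.09, 2.05 and 1.46 above the median under the 3 groupings in the same order. Grouping by either array alone builds in a shift of the medians, so the 3 values bound no error and serve as descriptions.

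The miR-10 pair was again without a settled order. miR-10a-5p lay 1.45 above its group's median by mean level, 1.21 above by spleen level and 0.62 above by lamina propria level. For miR-10b-5p the values were 0.66, 0.50 and 1.37, so it was the lower of the pair under the first pair of groupings and the higher under the last.

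**Figure D2:**
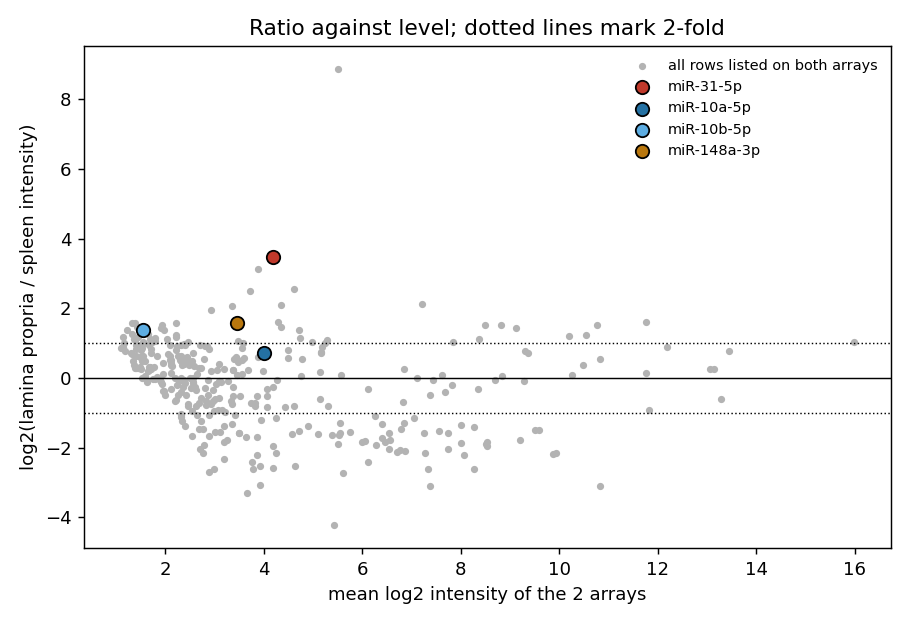
Log2 ratio of lamina propria to spleen intensity against the mean log2 intensity of the arrays, with the 353 rows listed on both arrays in grey and the 4 microRNAs in colour; dotted lines mark 2-fold in either direction. Dim rows on the left lie mostly above 0 and include miR-10b-5p, while brighter rows spread to both sides of it, and miR-31-5p (3.48) is exceeded by 1 row, at 8.87.

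Differences between members do not change with a single scaling factor between the arrays. The log2 ratio of miR-31-5p exceeded that of miR-148a-3p by 1.92, that of miR-10b-5p by 2.11 and that of miR-10a-5p by 2.76. In linear terms its gut-to-spleen ratio was 3.78, 4.32 and 6.77 times theirs. Settings that apply 1 factor to a whole array leave the lead of miR-31-5p over each of the others unchanged by construction. The lead kept its sign in the remaining settings, which were quantile normalization, removal of the trend and 1 or 10 added. Its smallest value there was 1.39, over miR-148a-3p, when 10 was added to each intensity. miR-148a-3p exceeded miR-10b-5p by 0.19 as deposited, a 1.14-fold difference between ratios that cannot be set against any replicate error. The gap was 0.41 with 1 added, 0.50 with 10 added, 0.88 after quantile normalization and 1.36 with the trend removed, in the same direction.

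Within the miR-10 pair the order was not stable. The log2 ratio of miR-10a-5p minus that of miR-10b-5p was -0.65 as deposited and -0.34 with 1 added to each intensity. It became 0.21 after quantile normalization, 0.48 once the trend with level was removed, and 0.13 with 10 added. The pair differ by 1 base, and probe sequences were not used here, so the share of either signal that comes from the other microRNA was not tested.

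The direction of all 4 members was the same under every scaling and pseudocount run, although the number past 2-fold was not. Adding a number to both intensities cannot change a direction. Setting medians, 75th percentiles or totals without the 10 brightest rows equal raised every ratio, so it could not turn these ratios either. Setting whole totals equal lowered every log2 ratio by 0.42, which is less than the smallest member ratio, 0.72, so it could not turn them. The direction was thus open to change only with quantile normalization or removal of the trend. With the medians of the shared rows set equal, 4 of 4 members were at least 2-fold higher, against 30.3% of the shared rows. With the total signal set equal, 2 of 4 were, against 6.8% of rows; with 10 added to each intensity, 1 of 4 was, against 5.1%. The summed intensity was 1.34 times higher in lamina propria, so scaling to equal totals lowers every ratio, while scaling to equal medians raises it. A single row held 92004.4 of the 182481 summed in lamina propria and 45486.9 of the 136232 summed in spleen. With the 10 brightest rows of each array left out of the totals, setting them equal raised every ratio instead. miR-31-5p passed 2-fold in every setting run, with a log2 ratio between 2.20 and 4.22. It kept rank 2, which a single factor between the arrays cannot change.

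miR-148a-3p had log2 ratios between 0.82 and 2.01 and fell short of 2-fold only with 10 added. miR-10a-5p ranged from 0.30 to 1.15. It passed 2-fold under 5 of the 8 other settings, those with medians, 75th percentiles or trimmed totals set equal, quantile normalization and removal of the trend. miR-10b-5p ranged from 0.31 to 1.80 and was under 2-fold with totals set equal (0.95), after quantile normalization (0.88), after removal of the trend (0.65) and with 10 added (0.31). Its rank moved from 26 to 85 of 353 after removal of the trend, whereas miR-10a-5p moved from 89 to 43. The ranks of miR-148a-3p lay between 14 and 27.

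**Figure D3:**
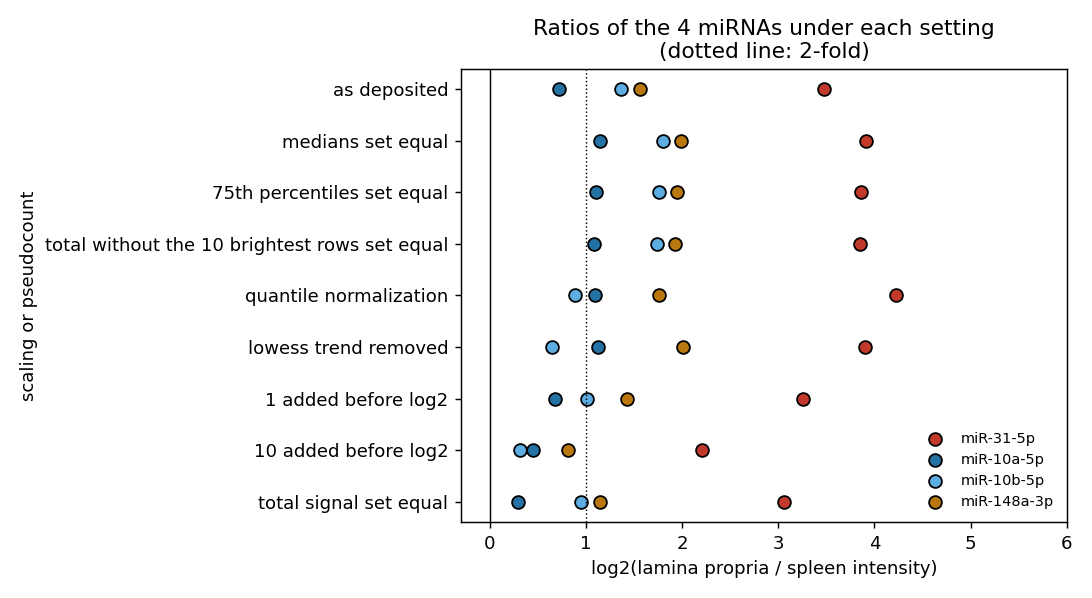
Log2 ratio of lamina propria to spleen intensity for each of the 4 microRNAs under the deposited scale and 8 other scalings or pseudocounts, 1 row of points per setting; the dotted line marks 2-fold. All points lie above 0, miR-31-5p is highest in every row (2.20 to 4.22), and miR-10a-5p and miR-10b-5p exchange places between rows.

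The rows most like each member over the 2 arrays were sought by the Euclidean distance between pairs of log2 intensities. miR-31-5p had the fewest close rows: 0 lay within a distance of 0.5 and 4 within 1. Its 3 nearest rows had spleen intensities of 4.97 to 10.05 and lamina propria intensities of 31.25 to 59.45, with log2 ratios from 2.48 to 3.13. miR-10a-5p had 26 rows within a distance of 1 and miR-148a-3p had 21. miR-10b-5p had 68, so its pair of values was shared by many dim rows. Over 2 arrays such likeness is only that of a pair of values, and none of the nearest rows can be given a name.

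The arrays measured microRNAs alone, so Foxp3, Bcl6 and other messenger RNAs that mark effector or regulatory T cells were not measured. The name of the set therefore rests on what its members are known for and was not checked in these cells. Markers of intestinal epithelium, stroma, myeloid cells and other cell types among the array's microRNAs were not assessed, because their accessions are not named in the tables used here. The part of such cells in the higher lamina propria values, including that of miR-31-5p, was not tested.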

How the data were processed

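RNA of CD4+ T cells was measured on 1-colour microRNA arrays, 1 for spleen and 1 for lamina propria, grouped by the labels' tissue. The authors deposited 1 linear intensity per row and array, in arbitrary units, on a scale judged from the values. For background subtraction, detection rule, scaling and signal over background, the sources used here give nothing. Of 739 rows, 516 were listed in spleen and 378 in lamina propria; rows without a value were left out of ratios. Member names come from the rule that chose them. The members and lists were chosen with earlier results of these data known. The lists fixed by microRNA name (opposite arms, seed families, other T cell microRNAs, cell type markers) were not applied, because no table used here pairs accessions with names.

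Log2 ratios of lamina propria to spleen used no pseudocount and no further scaling, and 2-fold was the threshold. With 1 array per tissue no test was possible. The rule for named microRNAs took the 4 members, those lists and the 3 rows nearest to each member. Alternatives were other scalings, a lowess curve (fraction 0.5) removed, and 1 or 10 added. Counting was tested on simulated data. Calculations used Python 3.11.15, numpy 2.4.6, pandas 2.3.3 and statsmodels 0.14.6. Sequences and gene neighbours came from RefSeq tables (GRCm38.p6).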

Additional observations from a re-analysis of the deposited data

How the results depend on the processing

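Scaling to equal totals, leaving out spleen values under the lowest lamina propria value and the grouping by 1 array's level were added after the data were examined. Log2 ratios as deposited were 3.48 for miR-31-5p, 0.72 for miR-10a-5p, 1.37 for miR-10b-5p and 1.56 for miR-148a-3p. In that order of members they were 3.91, 1.15, 1.80 and 1.99 with medians of the shared rows set equal, and 3.86, 1.10, 1.75 and 1.95 with 75th percentiles set equal. They were 3.85, 1.09, 1.74 and 1.93 with the total without the 10 brightest rows of each array set equal, and 3.06, 0.30, 0.95 and 1.14 with the whole total set equal. After quantile normalization they were 4.22, 1.09, 0.88 and 1.76, and after removal of the lowess trend 3.90, 1.12, 0.65 and 2.01. They were 3.26, 0.68, 1.02 and 1.43 with 1 added and 2.20, 0.44, 0.31 and 0.82 with 10 added. No log2 ratio of the 4 members changed sign in these 8 settings, though only quantile normalization and removal of the trend could have changed one. Setting medians, percentiles or totals equal adds 1 constant to every log2 ratio, and adding a number to both intensities shrinks the ratios of dim rows by construction; for the remaining changes the cause was not tested.

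Shared rows at least 2-fold higher in lamina propria numbered 57 as deposited. They numbered 107 with medians, 101 with 75th percentiles, 97 with trimmed totals and 24 with whole totals set equal, 36 with 1 added, 18 with 10 added, 27 in the upper 50% by mean level, 8 at 4-fold, and 30 of 300 with spleen values under the lowest lamina propria value left out. Rows at least 2-fold lower numbered 91 as deposited, 122 with whole totals set equal, 60 after removal of the trend and 30 at 4-fold. In the remaining settings they numbered 62 to 91. Leaving out spleen values under 2.88 removed miR-10b-5p and also the only row above miR-31-5p, at 2.10 in spleen and 984.31 in lamina propria. Through that removal miR-31-5p had the highest ratio of the 300 rows kept, while miR-148a-3p ranked 12 and miR-10a-5p ranked 50. In the upper 50% the ranks were 2, 12 and 37 of 177, and miR-10b-5p was too dim to be included. miR-31-5p and miR-148a-3p pass that filter only through their lamina propria values, so their ranks there support nothing. No paired analysis was possible because there is 1 array per tissue, which also leaves no replicate to omit.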
